A study of Homo sapiens with 36 samples.

Results

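Selumetinib, which blocks the kinases MEK1 and MEK2, was given for 4 h to SUM159PT, a human triple-negative breast cancer cell line, and the effect was read on Affymetrix whole-transcript arrays. The comparison used 6 of the series' 36 arrays, those titled as SUM159PT with selumetinib for 4 h (A, B and C) against those titled as SUM159PT control siRNA (A, B and C). It was described over the 17958 genes that a probe with a single gene symbol represents, and where a gene had several such probes, as 895 did, the one with the highest mean signal across the 36 arrays stood for it. All cells of both groups had been reverse transfected with 10 nM of a non-targeting siRNA pool and were collected 96 h later. The control group (siCONTROL) received the vehicle DMSO, and the treated group received 1 uM selumetinib during the last 4 h. The series, which also holds the lines MDA231 and BT549, 24 h of selumetinib and an siRNA against the phosphatase gene DUSP4, was designed to find the expression changes that follow MEK inhibition or loss of DUSP4. SUM159PT is 1 line, kept in serum and hydrocortisone, and the labels leave unsaid whether A, B and C came from separate cultures. The p-values and standard errors rest on a spread pooled over all 36 arrays, those of the other lines included. That spread may be technical.

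MEK1 and MEK2 phosphorylate the kinases ERK1 and ERK2, the last step of the cascade that runs from growth factor receptors through RAS and RAF. Active ERK phosphorylates transcription factors of the ETS and AP-1 families and, within minutes to hours, raises the transcripts of immediate early genes and of the pathway's own inhibitors: the dual-specificity phosphatases that remove phosphate from MAP kinases, and the Sprouty and SPRED proteins that act between receptor and RAF. Because these transcripts are short-lived, they are widely read as a measure of pathway output.

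The sample labels disagree on the line for 24 arrays, all 6 of these among them: the titles name SUM159PT and the source names BT549, and the titles were followed. RB1, the retinoblastoma gene that BT549 has lost, had a mean log2 signal of 9.40 in the control arrays titled SUM159PT, 10.31 in those titled MDA231 and 6.83 in those titled BT549. CDKN2A, whose transcript is usually high where RB1 is lost, had a mean of 4.12 in the SUM159PT control arrays, 4.23 in MDA231 and 9.82 in BT549. The arrays titled SUM159PT thus showed neither the low RB1 nor the high CDKN2A of the arrays titled BT549. The mesenchymal markers VIM, FN1, CDH2 and ZEB1 had control means of 11.99, 12.25, 10.66 and 9.45. CDH1, ESR1 and PGR lay in all 6 arrays under 5.33, and GATA3, FOXA1 and EPCAM between 5.39 and 7.02. The value 5.33 is the median of the mean signals of all 33297 probes, unnamed ones included, and is called the median probe level here. The median signal was 5.29 to 5.37 in the control arrays and 5.32 to 5.40 in the treated arrays. The upper quartile was 7.90 to 7.95 in the controls and lower in all 3 treated arrays, at 7.70, 7.76 and 7.81 in A, B and C. The number of arrays limits the precision.

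After 4 h of selumetinib the widest falls were those of the ERK feedback inhibitors DUSP6 and SPRY4, the immediate early gene EGR1, the cytokines IL24, CCL20 and IL6, the adaptor IRAK2 and the EGF receptor ligand HBEGF, and few genes were higher. Called lower were 5 of 7 Sprouty and SPRED genes, 5 of 11 MAP kinase phosphatases, 9 of 27 immediate early genes, 6 of 24 cytokines and chemokines and 2 of 10 EGF receptor ligands. In the limma fit, 769 of 17958 genes (4.28%) were called at a Benjamini-Hochberg adjusted p under 0.05, of which 684 were lower (3.81%) and 85 were higher (0.473%). By at least 2-fold, 34 genes were lower and 0 were higher; by at least 1.5-fold, 272 were lower and 16 were higher. The 3 treated arrays lay all below the 3 controls for 4184 genes (23.3%) and all above them for 2703 (15.1%). In bulk samples, fewer cells of a type and less RNA per cell cannot be told apart.

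The changes ran with signal level. Among the 11179 genes with a control mean above the median probe level, the median change was -0.11. Of these, 675 were called lower (6.04%) and 27 higher (0.242%). Among the 6779 genes at or under that level the median was 0.14, with 9 called lower (0.133%) and 58 higher (0.856%). Over all genes the median was -0.01. With the arrays brought to equal distributions by a repeated quantile normalization, 563 genes were lower (3.14%) and 223 higher (1.24%), so that the share of higher calls went from 11.1% to 28.4%. With only the array medians aligned, 1126 genes were lower (6.27%) and 75 higher (0.418%), and 6.2% of the calls were higher. On all 3 scales together, 495 genes were called lower and 52 higher. The part that the lower upper quartile of the treated arrays has in these counts was not tested. The count also fell when single arrays were left out, to 395, 367 and 248 without control array A, B or C and to 181 without treated array A, against 644 and 558 without treated array B or C. Of 87 called genes that the naming rule picked, 41 kept their call under all 14 alternatives, 46 lost it under 1 or more, and 0 changed direction. Leaving out treated array A ended 43 of the 87 calls, leaving out control array C, B or A ended 38, 30 and 23, and leaving out treated array C or B ended 20 and 14.

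**Figure D1:**
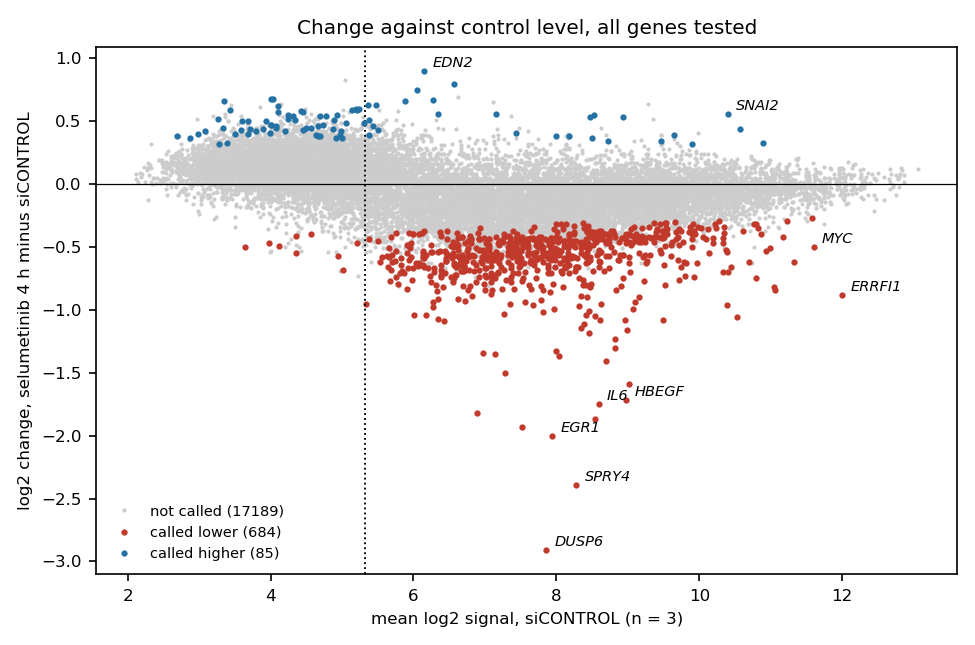
Log2 change after 4 h of selumetinib (3 arrays minus 3 control arrays, vertical axis) against the mean log2 signal of the controls (horizontal axis) for all 17958 genes, with 684 called lower in red, 85 called higher in blue and the rest in grey; the dotted line is the median probe level of 5.33. DUSP6, SPRY4 and EGR1 stand lowest, and 58 of the 85 genes called higher lie at or left of the dotted line.

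DUSP6, the cytoplasmic phosphatase that takes phosphate off ERK, had the largest fall of all genes. It stood at 7.85, 7.85 and 7.89 in control arrays A, B and C and at 4.79, 4.88 and 5.18 in the selumetinib arrays. The groups were far apart, and all 3 treated arrays lay under the median probe level. The change was -2.91 ± 0.21 (log2, limma standard error, n = 3 against 3; adjusted p = 5.9e-11), which is 13.3% of the control signal. DUSP4, a nuclear phosphatase for ERK and related kinases, went from 7.28, 7.08 and 7.06 to 5.57, 6.09 and 5.72. Its groups did not overlap, with treated array B the highest of the treated, and it fell by 1.35 to 39.3% of control (adjusted p = 3.6e-06). DUSP5, the nuclear ERK phosphatase, went from 8.68, 8.43 and 8.52 to 7.39, 7.64 and 7.43, again without overlap, a fall to 48.1% (adjusted p = 6.1e-05). DUSP1, which also acts on JNK and p38, was the brightest of the 4 and changed less, from a control mean of 10.13 to 9.58 (-0.55, adjusted p = 0.014). In all, 5 of the 11 MAP kinase phosphatases measured were called lower, 0 higher, with a median change of -0.21. The fifth, DUSP16, is named because the count is small (-0.38, adjusted p = 0.042), and its call and that of DUSP1 were lost without 1 or more single arrays, with adjusted p up to 0.15 and 0.095. DUSP16 also lost its call on the quantile scale (adjusted p = 0.14), where the list had 4 lower calls. The phosphatases DUSP2, DUSP7, DUSP8 and DUSP9 changed by -0.01, -0.13, 0.03 and -0.06 and were not called.

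Of the 7 Sprouty and SPRED genes, 5 were called lower and 0 higher, with a median change of -1.04, and the 5 calls held without each of the 6 arrays and on all 3 scales. SPRY4, a Sprouty inhibitor of receptor signalling, stood at 8.31, 8.35 and 8.18 in the controls and at 5.86, 5.76 and 6.06 after selumetinib. No treated array came near a control, and the change was -2.39 ± 0.22, to 19.1% of control (adjusted p = 6.7e-09). SPRY1 went from 6.45, 6.21 and 6.39 to 5.18, 5.36 and 5.30 (-1.07, adjusted p = 6.8e-08), which put it at the median probe level. SPRED1, a membrane-bound inhibitor of RAS to RAF signalling that works with neurofibromin, went from a mean of 9.49 to 8.41 (47.4% of control), and SPRED2 from 9.22 to 8.45 (58.8%). SPRY2, named as the last of the 5, fell by 1.04 (adjusted p = 0.0025). SPRY3 and SPRED3 changed by 0.13 and -0.20 and were not called.

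**Figure D2:**
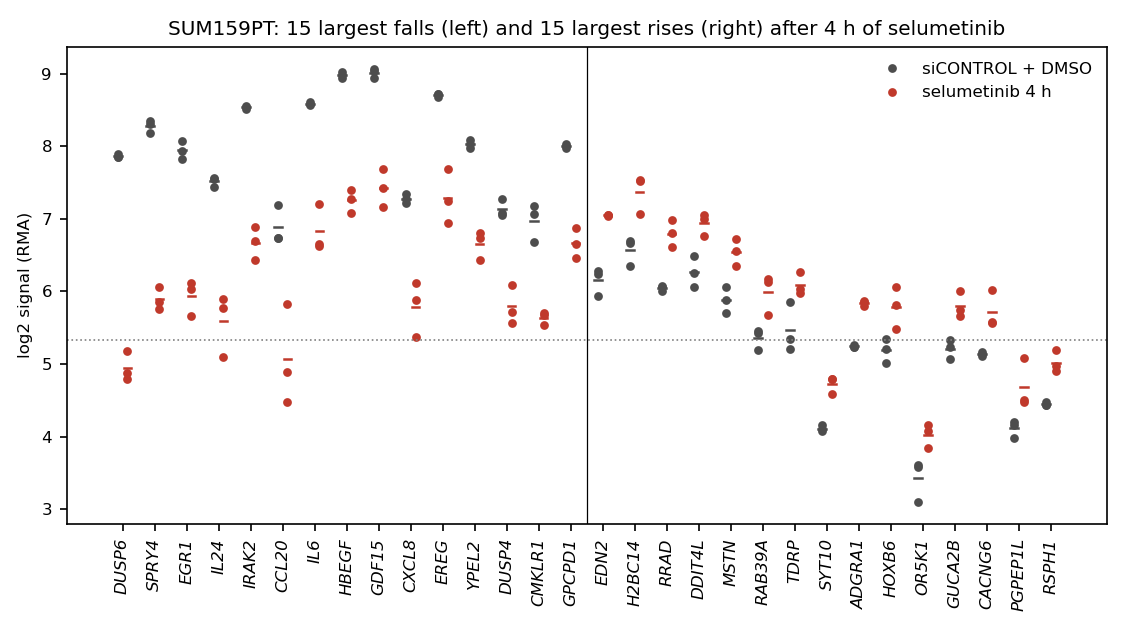
Log2 signal in each of the 3 control arrays (grey) and 3 selumetinib arrays (red), with group means as bars, for the 15 largest falls and 15 largest rises among called genes whose groups did not overlap; the dotted line is the median probe level of 5.33. The falls run from DUSP6 (-2.91) to GPCPD1 (-1.33) and start at control means of 6.89 to 9.02, while the rises are at most 0.90 (EDN2) and 8 of the 15 start at or under the dotted line.

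Genes that fell together can be compared in the DNA just before their starts. The 250 bases before the start of DUSP6, SPRY4, EGR1 and IL6, members with large falls from the phosphatase, Sprouty, immediate early and cytokine groups, are printed 5′ to 3′ on the gene's strand from RefSeq on GRCh38.p14. They lie at chr12:89352502-89352751 (minus strand), chr5:142324248-142324497 (minus), chr5:138465229-138465478 (plus) and chr7:22726950-22727199 (plus), and capitals mark matches to a motif searched.
DUSP6: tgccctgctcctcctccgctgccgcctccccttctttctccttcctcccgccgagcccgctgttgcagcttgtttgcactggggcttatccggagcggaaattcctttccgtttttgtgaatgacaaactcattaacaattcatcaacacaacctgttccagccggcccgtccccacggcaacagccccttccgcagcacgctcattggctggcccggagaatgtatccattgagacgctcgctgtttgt
SPRY4: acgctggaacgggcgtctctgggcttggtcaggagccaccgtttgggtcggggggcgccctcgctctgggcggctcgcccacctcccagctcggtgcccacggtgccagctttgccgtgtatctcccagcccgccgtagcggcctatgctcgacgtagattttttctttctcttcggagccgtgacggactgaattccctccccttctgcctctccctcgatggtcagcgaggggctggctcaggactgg
EGR1: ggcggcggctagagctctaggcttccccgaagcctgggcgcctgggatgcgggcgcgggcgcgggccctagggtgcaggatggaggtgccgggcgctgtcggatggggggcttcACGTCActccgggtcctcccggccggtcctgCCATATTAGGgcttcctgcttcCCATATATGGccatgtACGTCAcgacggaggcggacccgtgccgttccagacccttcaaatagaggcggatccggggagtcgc
IL6: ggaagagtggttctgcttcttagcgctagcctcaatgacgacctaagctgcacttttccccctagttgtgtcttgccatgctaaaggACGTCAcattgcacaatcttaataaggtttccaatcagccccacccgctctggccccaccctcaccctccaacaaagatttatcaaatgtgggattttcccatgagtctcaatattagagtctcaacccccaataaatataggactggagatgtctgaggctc
The search covered the AP-1 site TGANTCA, the cyclic AMP response core TGACGT, the ETS site CCGGAA and the serum response element known as the CArG box, on both strands. The EGR1 window held 2 CArG boxes, at 105 to 96 and 83 to 74 bases before the start, and 2 cyclic AMP response cores on the opposite strand, at 136 to 131 and 67 to 62 bases before it; the motifs do not overlap. The IL6 window held 1 cyclic AMP response core, at 163 to 158 bases before the start. None of the 4 motifs, in these letters, was in the DUSP6 or SPRY4 window. The windows of IL24, IRAK2, CCL20 and HBEGF, searched as well but not printed, also held none. IL24 and CCL20 are of the cytokine group too and fell further than IL6. A CArG box was in 1.14% of all 27305 promoter windows of the table and in 1.84% of the 543 windows of genes called lower, an ETS site in 14.8% and 23.4%, a cyclic AMP response core in 7.42% and 11.2%, and an AP-1 site in 6.6% and 5.71%. Over the windows of the 13861 tested genes with an entry, the shares were 1.18%, 19.6%, 8.74% and 4.86%. In the 61 windows of genes called higher they were 4.92%, 8.2%, 4.92% and 9.84%, and in the 28 windows of genes lower by at least 2-fold 3.57%, 14.3%, 14.3% and 3.57%. These are counts of letters in a window, not of bound sites.

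Transcription factors that ERK drives were lower in part. Of 27 immediate early genes measured, 9 were called lower and 0 higher (median -0.17). EGR1, a zinc finger factor induced within minutes of growth factor addition, went from 8.08, 7.82 and 7.93 to 5.66, 6.04 and 6.12. The groups were well apart, with treated array A the lowest, and EGR1 fell by 2.00 to 25% of control (adjusted p = 1.4e-09). IER3, an ERK-responsive survival gene, was among the brightest, at 11.08, 11.01 and 11.08 against 10.19, 10.31 and 10.14 (55.7% of control, adjusted p = 0.0022). GADD45A, a stress-response gene that binds cell cycle proteins, went from a mean of 9.81 to 9.18 (64.5%), and the zinc finger factor KLF6 from 8.22 to 7.74 (71.7%). EGR3, EGR4, IER2, NR4A1 and ZFP36, which are induced in the same way in many cells, changed by 0.06, 0.29, -0.10, -0.14 and -0.01 and were not called. On the quantile scale the count for this list was 9 lower and 2 higher. The KLF6 call was lost without control array C or treated array A, with adjusted p up to 0.078, and the list had 3 lower calls without treated array A.

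Of 12 AP-1 subunits, 3 were called lower (25%, against 3.81% of all genes) and 0 higher (median -0.21). FOS, the classical partner of JUN, went from 6.07, 6.08 and 6.46 to 5.40, 5.48 and 5.72, a fall to 62.8% of control (adjusted p = 0.0088). The small MAF proteins MAFF and MAFG fell to 58.1% and 70.2% (adjusted p = 0.016 and 0.03). All 3 calls were lost without control array C and without treated array A, with adjusted p up to 0.093, 0.12 and 0.3. FOSL1, often the main FOS protein in RAS-driven cells, changed by -0.50 in the same direction but was not called (adjusted p = 0.077), and JUN by -0.27.

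Among 17 ETS factors 4 were called lower (23.5%, against 3.81% of all genes) and 0 higher (median -0.24). ETV5, a PEA3-group factor that follows ERK activity, stood at 8.34, 8.41 and 8.40 in the controls and at 7.06, 7.41 and 7.35 in the treated arrays. Treated array A was the lowest and no array crossed over; the change was -1.11 ± 0.16 (adjusted p = 3.3e-05). Its relative ETV1 went from a mean of 9.15 to 8.60 (68.2% of control, adjusted p = 0.0031), and FLI1 from 6.99 to 6.44 (68.1%, adjusted p = 0.005). GABPA, a factor of nuclear genes for mitochondria, was at 74.4% of control (adjusted p = 0.031), a call lost on the quantile scale (adjusted p = 0.077) and without any 1 of the 6 arrays (up to 0.12). FLI1 lost its call without treated array A (adjusted p = 0.062). ETV4, the third PEA3-group member, changed by -0.23, and the ternary complex factors ELK1, ELK3 and ELK4 by -0.01, -0.35 and -0.10, all without a call.

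Of 26 other genes used as readouts of ERK, 7 were called lower (26.9%, against 3.81% of all genes) and 0 higher. The median of -0.32 was the lowest of the lists outside the Sprouty genes. GDF15, a secreted stress cytokine, stood at 9.04, 9.07 and 8.94 in the controls and at 7.17, 7.69 and 7.42 after selumetinib, 33.2% of control (adjusted p = 5.6e-06). EPHA2, an ephrin receptor tyrosine kinase whose gene follows RAS to ERK signalling, went from 8.86, 8.72 and 8.89 to 7.45, 7.58 and 7.54 (40.7%, adjusted p = 5.6e-05). PHLDA1, a pleckstrin-homology protein used in MEK response signatures, went from a mean of 8.45 to 7.27 (44.1%, adjusted p = 1.1e-07). The groups of all 3 genes were apart by more than the spread within either. RUNX1, a transcription factor, fell to 65.8% (adjusted p = 0.00027) and MYC to 70.9%. With the array medians aligned this list had 12 lower calls. Genes of the list that many ERK signatures hold, CCND1 (-0.36, adjusted p = 0.071), PLAUR (0.03) and VEGFA (-0.24), were not called here.

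Ligands of the EGF receptor were split. HBEGF, which activates EGFR and ERBB4, stood at 8.94, 8.98 and 9.02 in the controls and at 7.40, 7.28 and 7.08 in the treated arrays, 30.3% of control (adjusted p = 1.8e-07). EREG, epiregulin, went from 8.72, 8.68 and 8.72 to 6.95, 7.69 and 7.24, 37.5% (adjusted p = 6.2e-07). Both groups were apart, although the treated EREG arrays were spread more widely than the controls. The other 8 of the 10 ligands measured, among them TGFA (0.07), NRG1 (-0.14) and EGF (-0.06), were not called, and 6 of the 10 had a control mean at or under the median probe level. ERRFI1, the feedback inhibitor that binds EGFR itself, is named after its values were seen. It stood at 12.01, 12.01 and 11.99 in the controls and at 11.10, 11.10 and 11.16 in the treated arrays (-0.88 ± 0.09, adjusted p = 6.8e-08). Its fall had rank 55 over all genes.

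Transcripts of the cascade itself were not called. Of 27 RAS to ERK core genes measured by a single-symbol probe out of 34 listed, limma called 0 in either direction, with 6 lower and 0 higher at an unadjusted p under 0.05 and a median of -0.08. HRAS, ARAF, MAP2K2 and MAPK3 changed by 0.02, -0.02, -0.24 and 0.05, and the member of smallest p, RPS6KA5, by -0.41 (adjusted p = 0.1). The RAS to ERK list had 1 lower call on the quantile scale. Of 33 receptor tyrosine kinases, 2 were called lower (EPHA2 and MET, 6.06% against 3.81% of all genes) and 0 higher, with a median of -0.04. MET, the hepatocyte growth factor receptor, went from a mean of 9.98 to 9.64 (78.9% of control, adjusted p = 0.022, up to 0.12 without 1 array). EGFR, AXL, PDGFRB and FGFR1 changed by -0.24, -0.10, -0.21 and -0.13.

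**Figure D3:**
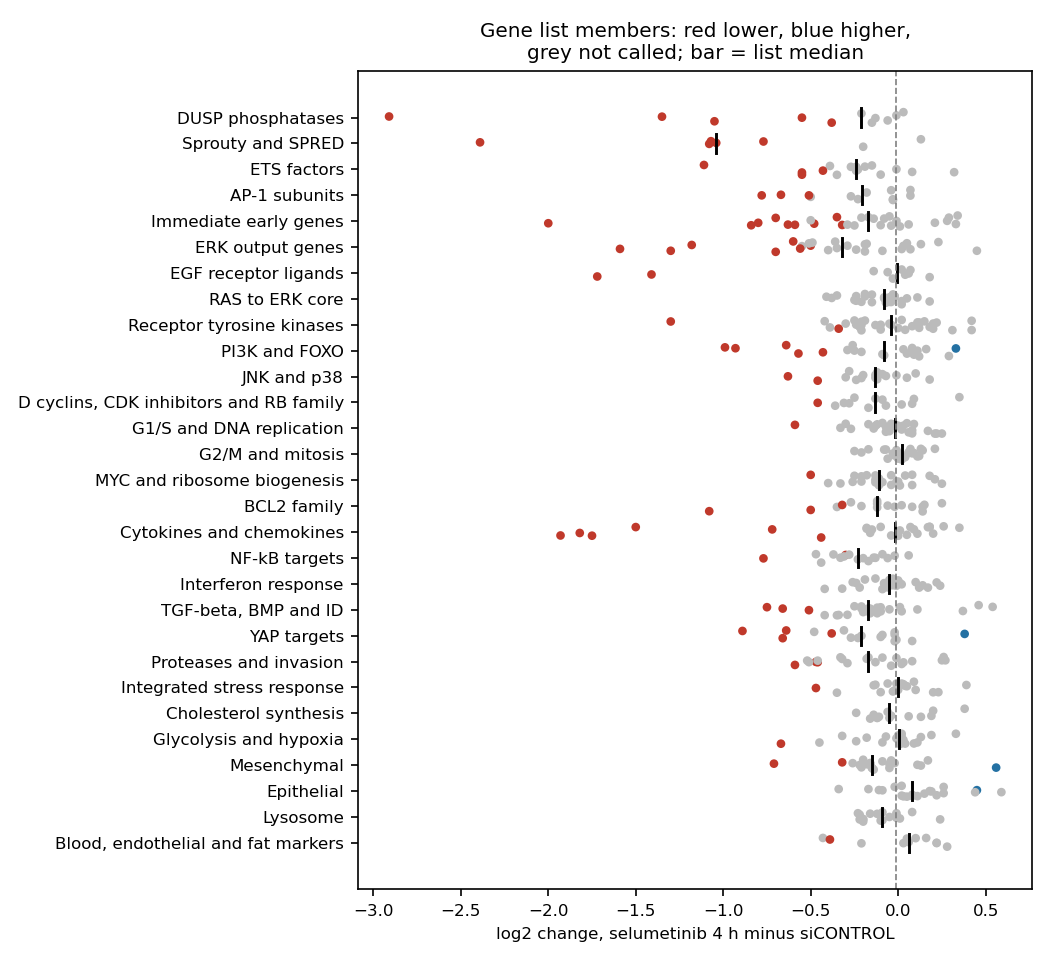
Log2 change after 4 h of selumetinib (3 treated minus 3 control arrays) for each measured member of 29 gene lists, 1 point per member (red called lower, blue higher, grey not called), with the list median as a black bar and the median of all genes (-0.01) as a dashed line; vertical position within a list only separates points. The phosphatase, Sprouty, cytokine and EGF ligand lists are among those with members below -1, and the median of the Sprouty list is at -1.04, while the other medians lie between -0.32 and 0.08.

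The cytokine list held some of the widest falls beside many genes that did not move. IL6, an inflammatory cytokine that signals through STAT3, stood at 8.58, 8.57 and 8.61 in the controls and at 6.63, 7.20 and 6.66 after selumetinib. The controls were nearly equal, and treated array B was the highest of the treated. IL6 fell by 1.75 ± 0.15 to 29.7% of control (adjusted p = 1.3e-09). IL24, of the interleukin-10 family, went from 7.56, 7.44 and 7.55 to 5.09, 5.77 and 5.90 (26.3%, adjusted p = 3.3e-07), CXCL8, the neutrophil chemokine interleukin-8, from 7.34, 7.28 and 7.22 to 5.37, 6.12 and 5.88 (35.4%, adjusted p = 0.00033), and CCL20, the ligand of CCR6, from 6.74, 7.19 and 6.74 to 4.48, 5.83 and 4.89 (28.3%, adjusted p = 2e-07). For all 3 the treated arrays were spread more widely than the controls, with array A the lowest, yet no group overlapped. The other called members of the 24, IL1A and CXCL11, are named to complete the count of 6 (-0.72 and -0.44, adjusted p = 0.0083 and 0.026); without 1 array these rose to at most 0.12 and 0.26, and CXCL11 was also lost on the quantile scale (adjusted p = 0.16) and in a fit of the 6 arrays alone. The list's median was -0.02, since CXCL2, CXCL3, CCL2, CSF1 and TNF changed by 0.01, 0.18, 0.11, -0.10 and 0.35.

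IRAK2, a kinase-like adaptor of interleukin-1 and Toll-like receptors, was on no list and had the fifth largest fall, from 8.52, 8.55 and 8.54 to 6.44, 6.89 and 6.69, 27.4% of control (adjusted p = 1.1e-09). Of 17 NF-kB genes, 2 were called lower (11.8%, against 3.81% of all genes) and 0 higher (median -0.23). NFKBIE, an inhibitor of NF-kB, went from a mean of 7.52 to 6.76 (58.7%, adjusted p = 0.0052, 0.058 without treated array A), and NFKB1 from 9.66 to 9.36 (81%, adjusted p = 0.04, up to 0.16 without 1 array). NFKBIA and TNFAIP3, direct feedback targets of NF-kB, changed by -0.20 and -0.47 and were not called. Of 25 interferon response genes, limma called 0 in either direction, with 3 lower and 0 higher at an unadjusted p under 0.05 and a median of -0.05; the lowest p belonged to the RNA sensor IFIH1 (-0.32, adjusted p = 0.16).

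Several of the widest falls belonged to genes outside the known ERK feedback circuit. YPEL2, a small zinc-binding protein, went from 7.97, 8.03 and 8.09 to 6.44, 6.81 and 6.73 (38.6% of control, adjusted p = 1.4e-07). GPCPD1, an enzyme that splits glycerophosphocholine, went from between 7.98 and 8.03 to 6.46, 6.88 and 6.66 (39.7%, adjusted p = 1.8e-07). CMKLR1, the receptor of chemerin, went from 6.68, 7.18 and 7.07 to 5.67, 5.54 and 5.70 (39.5%, adjusted p = 1.8e-07). The groups of all 3 were apart by more than the spread within either, and PAG1, an adaptor that holds the SRC-inhibiting kinase CSK at the membrane, fell to 51.7% (adjusted p = 3.4e-06).

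In the PI3K and FOXO list of 21 measured genes, 5 were called lower (23.8%, against 3.81% of all genes) and 1 higher (4.76%, against 0.473%). The list median was -0.08. IRS1, the insulin receptor's adaptor, went from 6.57, 6.71 and 6.88 to 5.81, 5.56 and 6.01 (52.6% of control, adjusted p = 0.0026), and IRS2 by -0.57 (adjusted p = 0.025). PDK4, the pyruvate dehydrogenase kinase that FOXO factors induce, went from 9.03, 8.95 and 9.22 to 7.86, 8.27 and 8.11 (50.5%, adjusted p = 0.0044). PIK3IP1, an inhibitor of PI3K, fell to 64.1% (adjusted p = 0.014) and the repressor BCL6 to 74.3% (adjusted p = 0.021). The member called higher was PIK3R1, the p85 alpha subunit of PI3K, at 10.88, 10.88 and 10.92 against 11.24, 11.28 and 11.13 (0.33, adjusted p = 0.023). IRS1 kept its call under each alternative; the others lost theirs without 1 or more arrays, with adjusted p of 0.054 for PDK4 without treated array A and at most 0.094 for PIK3IP1, 0.092 for BCL6, and 0.12 for IRS2 and PIK3R1. IRS2 and PIK3R1 stand outside the naming rule and complete the counts.

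Regulators of survival and stress moved in small numbers. Of 17 BCL2 family genes, 3 were called lower (17.6%, against 3.81% of all genes) and 0 higher (median -0.12). PMAIP1, which encodes the pro-apoptotic protein NOXA, went from 8.59, 8.53 and 8.70 to 7.19, 7.91 and 7.48 (47.2% of control, adjusted p = 0.00016), with groups apart and treated array A the lowest. The pro-survival genes BCL2L2 and MCL1 fell to 70.7% and 80.1% (adjusted p = 0.02 and 0.041, up to 0.1 and 0.23 without 1 array). BCL2L11, which encodes BIM, the BCL2 protein that ERK marks for destruction, changed by -0.06 and was not called. Of 17 JNK and p38 module genes 2 were called lower (11.8% of the list). They were MAP3K5, the stress kinase ASK1 (64.6% of control, adjusted p = 0.00058), and MAPK8, JNK1 (72.7%, adjusted p = 0.028, up to 0.28 without 1 array). Of 19 genes of the integrated stress response, 17 had a control mean above the median probe level, where 6.04% of genes were called lower. Of the 19, 1 was called (5.26%, against 3.81% of all genes called lower), and the list median was 0.00. It was PPP1R15A, a phosphatase subunit that restores translation (72.3% of control, adjusted p = 0.0034). On the quantile scale that list had 1 lower and 2 higher calls.

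Few cell cycle genes were called at 4 h. Of 28 genes of the G1/S transition and DNA replication, 1 was called lower (3.57%, against 3.81% of all genes) and 0 higher, with a median of -0.02. The lower one was the transcription factor E2F3 (66.4% of control, adjusted p = 0.029). The E2F3 call was lost on the quantile scale (adjusted p = 0.056), where 2 others of the list were called higher, and without 1 array (up to 0.13). With the array medians aligned the list had 2 lower and 0 higher calls. Of 25 G2/M and mitosis genes limma called 0 in either direction, with 1 lower and 0 higher at an unadjusted p under 0.05 and a median of 0.02, and 1 was called higher on the quantile scale. CCNB1, CDK1, PLK1 and TOP2A changed by 0.14, 0.08, 0.04 and -0.01. Of 13 D cyclins, CDK inhibitors and RB family genes 1 was called lower (7.69%, against 3.81% of all genes) and 0 higher. It was CDKN1B, which encodes the CDK inhibitor p27, at 9.04, 9.24 and 9.27 in the controls against 8.71, 8.60 and 8.86 (72.8%, adjusted p = 0.018, up to 0.11 without 1 array). The list had 2 lower calls on the quantile scale and 4 with the array medians aligned. MYC, the growth-promoting transcription factor, was bright and its replicates close, at 11.62, 11.61 and 11.57 against 11.13, 11.02 and 11.17 (70.9%, adjusted p = 0.0031). It was the only 1 of 25 MYC network and ribosome biogenesis genes called (4%, against 3.81% of all genes called lower). Of the 25, 23 had a control mean above the median probe level, where 6.04% of genes were called lower. NCL, NPM1, FBL and ODC1, all known MYC targets, changed by -0.04, 0.08, 0.08 and -0.04.

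Genes of secreted growth factors, matrix and adhesion gave scattered calls. Of 27 TGF-beta, BMP and ID genes 3 were called lower (11.1%, against 3.81% of all genes) and 0 higher (median -0.17). TGFB2, a TGF-beta ligand, went from 10.82, 10.69 and 10.85 to 9.92, 10.18 and 9.99 (59.4% of control, adjusted p = 0.00022). TGIF1, a SMAD corepressor, fell to 63.2% (adjusted p = 0.00052) and the receptor TGFBR2 to 70.3% (adjusted p = 0.0021). These 3 calls held without each of the 6 arrays and on all 3 scales, while ID1, ID2 and ID3 changed by -0.17, 0.37 and 0.54 without a call. Of 17 YAP and TEAD genes 4 were called lower (23.5%) and 1 higher (5.88%, against 0.473% of all genes), with a median of -0.21. The matrix protein CCN2 went from 8.30, 8.32 and 8.42 to 7.23, 7.68 and 7.46 (53.9%, adjusted p = 0.0064, 0.074 without treated array A). NUAK2, a kinase of the AMPK family, and F3, tissue factor, were at 64% and 63.5% (adjusted p = 0.0098 and 0.018, up to 0.11 and 0.17 without 1 array). WWTR1, the YAP partner TAZ, completes the count (-0.38, adjusted p = 0.024, up to 0.11), and AJUBA, a scaffold that restrains the Hippo kinases, was the higher one (130%, adjusted p = 0.02, up to 0.095). Without treated array A the list had 0 lower calls.

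Of 21 proteases and their inhibitors 3 were called lower (14.3%, against 3.81% of all genes) and 0 higher (median -0.17). They were the collagenase MMP13 (66.2% of control, adjusted p = 0.015), the membrane protease MMP16 (72.5%, 0.037) and ADAMTS6 (72%, 0.038). All 3 were lost without treated array A, with adjusted p of up to 0.12, 0.31 and 0.18 without 1 array. MMP16 and ADAMTS6 were also lost on the quantile scale (0.083 and 0.17), and ADAMTS6 with the replicate letter as a block (0.056). Of 21 mesenchymal genes 2 were called lower (9.52%) and 1 higher (4.76%, against 0.473% of all genes). SNAI2, the transcription factor SLUG, was the higher one, at 10.45, 10.31 and 10.44 against 10.93, 11.01 and 10.92, a rise without overlap to 147% of control (adjusted p = 0.036, up to 0.14 without 1 array). POSTN, periostin, was at 61.1% (adjusted p = 0.0097, up to 0.07) and the collagen COL5A1 at 80.2% (adjusted p = 0.04, 0.056 with the replicate block and 0.35 on the quantile scale), whereas VIM and FN1 changed by -0.05 and -0.04. Of 21 epithelial genes 1 was called higher (4.76%) and 0 lower. It was the tight junction gene CLDN4, at signals under the median probe level. CLDN4 went from 4.57, 4.57 and 4.53 to 4.71, 5.30 and 5.01 (adjusted p = 0.04), and the call was lost on both other scales (0.18 and 0.06).

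At most 1 gene was called in each of the lists of cholesterol synthesis (0 of 14 called, median -0.06, and 0 at an unadjusted p under 0.05 in limma), lysosome (0 of 18, median -0.10, with 1 higher and 0 lower at an unadjusted p under 0.05), and glycolysis and hypoxia (1 of 20, median 0.00). All 20 glycolysis and hypoxia genes had a control mean above the median probe level, where 6.04% of genes were called lower. The 1 called hypoxia gene is 5% of its list, against 3.81% of all genes called lower. It was ADM, adrenomedullin, at 62.8% of control (adjusted p = 0.04, 0.053 with the replicate block and up to 0.23 without 1 array). Of 11 markers of blood, endothelial and fat cells, which a culture of a tumour line should not hold, 1 was called lower (9.09%). It was PTPRC, the leukocyte gene CD45, at a low signal above the median probe level (5.75 to 5.36, adjusted p = 0.048, 0.067 with the replicate block). The mean signal of the 11 markers was 4.88 to 4.95 in the control arrays and 4.88 to 4.94 in the treated arrays. Of the 11, 3 had a control mean above the median probe level, PTPRC among them. HBB, CD3E, VWF, ADIPOQ and LYZ were among those under it.

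Rises were small and sat mostly at low signal. EDN2, the vasoconstrictor endothelin-2, had the largest, from 6.24, 6.28 and 5.94 to 7.06, 7.04 and 7.06, 187% of control (adjusted p = 0.0011). The treated arrays were nearly equal and all above the controls. H2BC14, a replication-type H2B histone gene, went from 6.67, 6.70 and 6.35 to 7.07, 7.53 and 7.52 (174%, adjusted p = 0.0012), and RRAD, a RAS-related GTPase, from 6.06, 6.07 and 6.01 to 6.80, 6.61 and 6.98 (168%, adjusted p = 0.01). DDIT4L, an inhibitor of mTOR signalling, reached 159% and MSTN, myostatin, 158% (adjusted p = 0.0063 and 0.016). EDN2 and H2BC14 kept their calls under each alternative, and the other 13 of the 15 largest rises lost theirs under 1 to 7 of them, for DDIT4L without control array A alone (adjusted p = 0.056) and for RRAD in 3 cases (0.054). Among the 85 higher genes, 58 had a control mean at or under the median probe level and 47 were under it in both groups. The 85 included 6 of 356 olfactory receptor genes, receptors known for their use in the nose. Higher were 0.473% of all genes and 0.856% of the 6779 genes at or under the median probe level. An example is OR5K1 (3.58, 3.61 and 3.10 against 4.16, 4.07 and 3.84, adjusted p = 0.032). Of the 684 lower genes, 9 had a control mean at or under that level.

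After the same 4 h of selumetinib more genes were called in MDA231 and fewer in BT549 than in SUM159PT, counts that are not themselves a test of a difference. Each line was set against its own 3 control arrays. In MDA231, 2798 genes (15.6%) were called, 2598 of them lower (14.5%), and in BT549 117 genes (0.652%), 88 of them lower (0.49%). Over all genes the median change was -0.13 in MDA231, -0.02 in BT549 and -0.01 in SUM159PT. The upper quartile was 7.95, 7.48 and 7.66 in MDA231 4 h arrays A, B and C, against 7.89 to 7.96 in its controls. In the BT549 control and 4 h arrays it was 7.99 to 8.03. The part of these shifts in the counts was not tested. Of the 684 genes lower in SUM159PT, 257 were lower in MDA231, which is 37.6% of the SUM159PT genes and 9.9% of those in MDA231. In BT549, 34 were lower, which is 5.0% of the SUM159PT genes and 38.6% of those in BT549. Lower in all 3 lines were 27 genes: the feedback genes DUSP5, DUSP6, SPRY2, SPRY4 and ERRFI1, the early genes and ERK readouts EGR1, IER3, MAFF, PHLDA1, TRIB2 and EMP1, the secreted factors CXCL8, IL24, EREG and STC1, and IRAK2, MAP3K5, SMURF2, CDK17, NT5E, JMJD1C, USP53, NAV3, AMIGO2 and ZNF267. Of the 27, 18 kept their SUM159PT call under each alternative and 9 lost it under 1 or more. EMP1 and AMIGO2 lost it without treated array A (adjusted p = 0.057 and 0.05), and MAFF, ZNF267 and NT5E without that and other single arrays (up to 0.12, 0.11 and 0.095). TRIB2, STC1, SMURF2 and NAV3 lost it without 5 or 6 of the 6 single arrays (up to 0.21, 0.23, 0.12 and 0.21) and on the quantile scale (0.11, 0.059, 0.051 and 0.067), and NAV3 also with the replicate block (0.055). The last of the 27 are CD274 and PDCD1LG2, the ligands of the T cell receptor PD-1, singled out after their values were seen. CD274 went from 7.62, 7.87 and 7.94 to 6.48, 7.16 and 6.73 in SUM159PT (-1.02, adjusted p = 0.00014), against -1.79 in MDA231 and -0.89 in BT549. PDCD1LG2 changed by -0.81 (adjusted p = 0.0012), -1.04 and -0.66, and both calls in SUM159PT held under each alternative.

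The test of the difference itself, the 4 h change in SUM159PT minus that in MDA231, called 284 genes (1.58%), with 197 changing more positively in SUM159PT (1.1%) and 87 more negatively (0.484%). The count was 159, 158 and 135 without SUM159PT control array A, B or C, 142 without treated array A and 736 on the quantile scale. Over all genes the median of this difference was 0.12, and its part in the split was not tested. DUSP5 fell in both but by 1.05 in SUM159PT and by 2.93 in MDA231, a difference of 1.88 (adjusted p = 8e-06). SPRY4 changed by -2.39 against -4.32 (difference 1.93, adjusted p = 0.00037), from control means of 8.28 in SUM159PT and 9.87 in MDA231. DUSP6 changed by -2.91 against -4.53 (difference 1.62, adjusted p = 0.0018), from control means of 7.86 and 11.36. Its treated SUM159PT arrays lay under the median probe level, and the part of low signal in this difference was not tested. Other differences belonged to genes that were dim in SUM159PT. NLRP3, an inflammasome sensor, stood at 4.11, 4.00 and 4.05 in the SUM159PT controls and 4.06, 3.97 and 3.99 after selumetinib, with a change of -2.54 in MDA231 (difference 2.49, adjusted p = 5e-09). TGFA and LIF, at control means of 4.84 and 4.44, were also dim here and changed by -1.93 and -1.83 in MDA231 (differences 2.00 and 1.88, adjusted p = 8e-06 and 1.9e-05). In the other direction, YPEL2 and GPCPD1 changed by -1.37 and -1.33 in SUM159PT and by -0.05 and -0.11 in MDA231 (differences -1.33 and -1.23, adjusted p = 0.00029 and 0.00056), and for CCL20 and IL6 the differences were -1.55 and -1.20 (adjusted p = 0.0018 and 0.001). CDKN1B fell by 0.46 here and rose by 0.55 in MDA231 (difference -1.01, adjusted p = 0.00051), 1 of 6 genes called lower here and higher there. MDA231 4 h arrays resembled each other less than the SUM159PT arrays did, with a mean correlation with their group of 0.9778 to 0.9817 against 0.9939 to 0.9944, and the part of this in the difference was not tested.

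Against BT549 the difference was called for 58 genes (0.323%), 48 of them more negative in SUM159PT (0.267%) and 10 more positive (0.0557%). The count was 38, 34 and 28 without control array A, B or C, 24 without treated array A and 113 on the quantile scale. IL6 changed by -1.75 in SUM159PT and -0.17 in BT549 (difference -1.58, adjusted p = 0.00017). CMKLR1 changed by -1.34 against 0.17 (difference -1.51, adjusted p = 0.0002), SPRY1 by -1.07 against -0.01 (difference -1.06, adjusted p = 0.00039) and PAG1 by -0.95 against 0.14 (difference -1.09, adjusted p = 0.00093). These 4 genes thus fell in SUM159PT, and their changes in BT549 were near 0. CMKLR1 was dim in BT549, at a control mean of 3.66, under the median probe level. The part of low signal in its difference was not tested. IL6, SPRY1 and PAG1 had control means of 10.56, 7.79 and 8.13 in BT549. HBEGF and DUSP6 also fell further in SUM159PT than in BT549 (differences -1.34 and -1.31, adjusted p = 0.012 and 0.036). For EGR1, SPRY4, DUSP5 and ETV5 the differences of -0.41, -0.59, -0.09 and -0.62 were not called, which does not show that the lines respond alike.

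**Figure D4:**
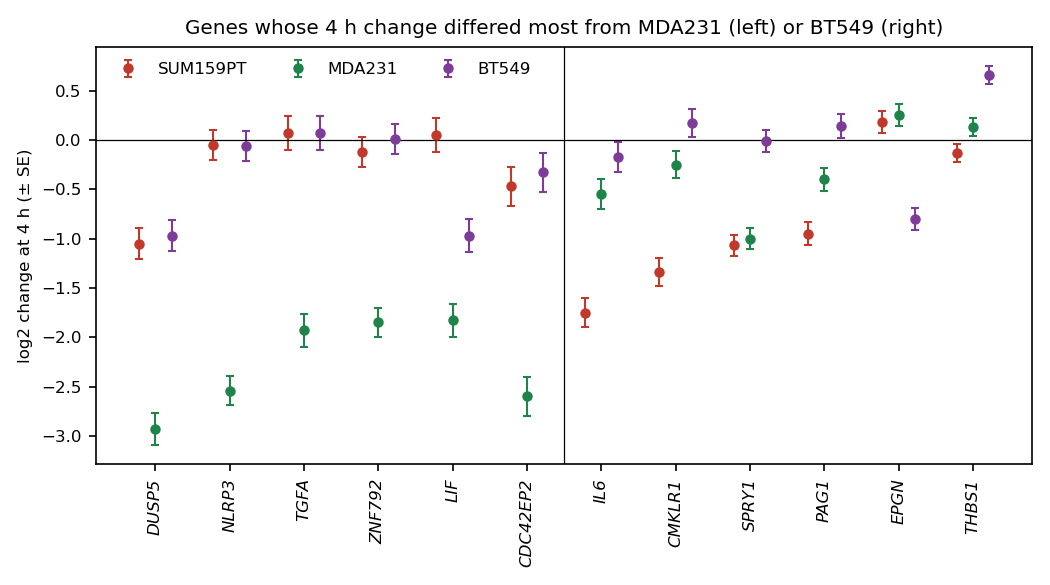
Log2 change after 4 h of selumetinib with its limma standard error (bars) in SUM159PT, MDA231 and BT549, 3 treated against 3 control arrays per line, for the 6 genes of smallest p for the difference between SUM159PT and MDA231 (left) and between SUM159PT and BT549 (right). On the left MDA231 lies between -1.83 and -2.93 while SUM159PT lies near 0 except for DUSP5 (-1.05) and CDC42EP2 (-0.47); on the right IL6, CMKLR1, SPRY1 and PAG1 are lower in SUM159PT than in BT549.

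The values at 24 h, from separate arrays set against the same control arrays, show where the 4 h change stood later. The limma fit called 540 genes (3.01%) between 24 h and 4 h of selumetinib, 417 of them higher at 24 h (2.32%) and 123 lower (0.685%). The count was 297 and 328 without treated 4 h array A or B, 1078 on the quantile scale and 1610 in a fit of the 12 SUM159PT arrays. It shares the 4 h arrays with the comparison described so far, and the genes that follow were picked on these changes, so their values are given with no test. EGR1, at a mean of 7.94 in the controls and 5.94 at 4 h, was at 7.79 at 24 h. IRS1 and PDK4 also stood near their controls at 24 h, with changes of 0.17 and 0.12 against -0.93 and -0.99 at 4 h. PLD1, a phospholipase, and TMEM140 were lower at 4 h (-0.61 and -0.82) and higher at 24 h (0.83 and 0.57). SPRY4 was between, at 5.89 at 4 h and 6.92 at 24 h against 8.28, and DUSP6 at 4.95 and 5.58 against 7.86. ETV5 had a lower mean still at 24 h, 6.35 against 7.27 at 4 h and 8.38 in the controls, as were ETV1 (7.73 against 8.60), CCL20 (4.36 against 5.07), STAT4 (5.86 against 7.25) and SPP1, osteopontin (4.54 against 5.48). At 4 h the calls of PLD1 and STAT4 were lost without treated array A (adjusted p = 0.078 and 0.054), and that of STAT4 also on the quantile scale (0.052). Of the 28 G1/S and replication genes, 13 were called lower at 24 h against 1 at 4 h, with medians of -0.39 and -0.02, beside 528 lower and 240 higher of all genes at 24 h (2.94% and 1.34%).

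**Figure D5:**
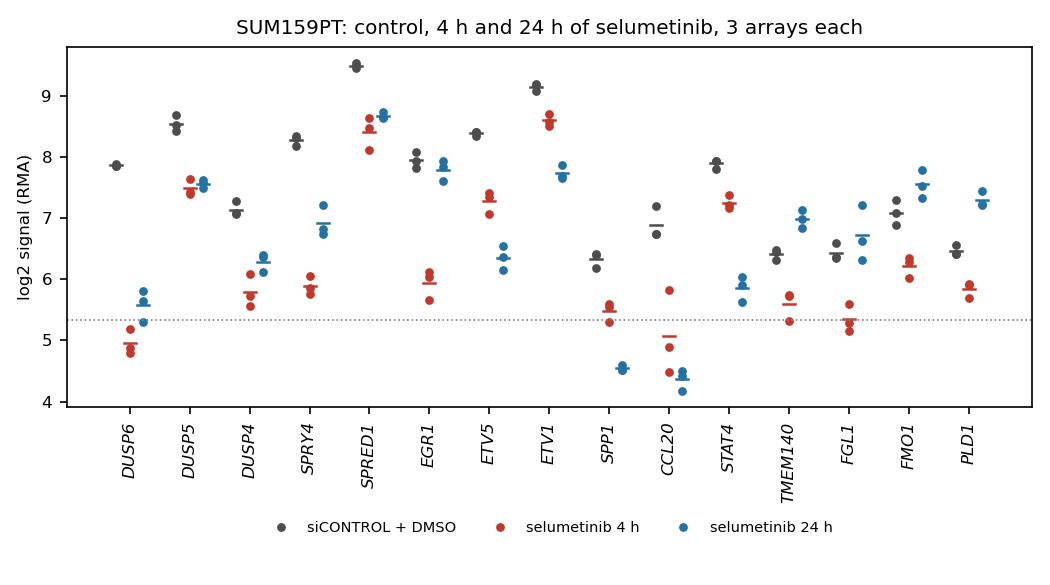
Log2 signal of each array (points, 3 per group) with group means (bars) for SUM159PT controls (grey), 4 h (red) and 24 h (blue) of selumetinib; the dotted line is the median probe level of 5.33. DUSP6 and DUSP5 stay low at 24 h, EGR1 is back near its controls at 7.79, ETV5, ETV1, SPP1, CCL20 and STAT4 have lower means at 24 h than at 4 h, and PLD1 and TMEM140 are above their controls at 24 h.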

How the data were processed

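RNA of 36 cell line samples was measured on single-colour Affymetrix arrays. The authors deposited log2 values; RMA and Affymetrix Expression Console 1.1 are the tools in the submitters' processing notes. RMA options, summary level and genome build: not given in the sources used here. Of 33297 probes, 19181 had 1 gene symbol in the platform annotation (19143 matched to RefSeq), 2055 had several and 12061 are unnamed here.

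A linear model with 1 mean per group (12 groups of 3) was fitted with limma 3.58.1 (lmFit, eBayes) in R 4.3.3, with 24 residual and 7.8 prior degrees of freedom. Adjusted p-values are limma's, by Benjamini-Hochberg over the 17958 genes, called under 0.05. Percent of control is 2 to the power of the log2 change. No filter on dim genes was applied, and the script was tested on simulated data. The members and lists were chosen with earlier results of these data known, and lists have counts and medians but no test. Named genes are the 15 largest rises and falls without overlap, up to 4 called members per list (smallest p), the 6 of smallest p for each line difference, among genes called at 4 h the 5 that rose most and the 5 that fell most by 24 h, and RB1, CDKN2A and DUSP4, passing over genes that are not protein-coding, unnamed loci and withheld names. Deviations of same-letter control and treated arrays correlated at 0.149, 0.105 and 0.271 for A, B and C, those of unlike letters at -0.178 to 0.037. Because the deviations are from means of 3 arrays, these values do not settle whether the letters pair the samples. The reported fit does not pair them. Promoter windows are the 250 bases before each RefSeq start. Alternatives were the 6 or 12 SUM159PT arrays alone, the replicate block, quantile and median scaling, a dim filter, other probe choices, a trended prior, stricter thresholds and leaving out each array; calls alike on 3 scales were added after seeing the data.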

Additional observations from a re-analysis of the deposited data

Results flagged for a closer look

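The change after 4 h of selumetinib differed between lines by limma's test of the difference for 284 genes against MDA231 and for 58 genes against BT549, at an adjusted p under 0.05. Against MDA231 the 6 genes of smallest p all changed more positively in SUM159PT: NLRP3 by 2.49, CDC42EP2 by 2.14, TGFA by 2.00, DUSP5 by 1.88, LIF by 1.88 and ZNF792 by 1.73 (log2, SUM159PT minus MDA231). NLRP3, TGFA and LIF had control means of 4.05, 4.84 and 4.44 in SUM159PT, under the median probe level of 5.33. Against BT549 the change was more negative in SUM159PT for IL6 (-1.58), CMKLR1 (-1.51), PAG1 (-1.09), SPRY1 (-1.06) and THBS1 (-0.79), and more positive for EPGN (0.98). THBS1, the matrix protein thrombospondin-1, changed by -0.13 in SUM159PT and 0.66 in BT549, and EPGN by 0.18 and -0.80. These differences come with a change in BT549 and no call in SUM159PT. EPGN was dim in SUM159PT, at a control mean of 3.22 against 8.61 in BT549. CMKLR1 was dim in BT549, at a control mean of 3.66.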

How the results depend on the processing

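None of the 87 called genes that the naming rule picked changed direction under the 14 alternatives run per gene; of those not called, TGFA, LIF and ZNF792, near 0, took both signs. The 769 calls became 2074 in a fit of the 6 arrays alone, 2694 in the 12 SUM159PT arrays, 1201 with medians aligned, 245 at an adjusted p under 0.01 and 288 with 1.5-fold, and 181 to 644 without 1 array. With the replicate block 790 were called (81 higher, 709 lower); the block ended the calls of ADM, ADAMTS6, COL5A1, PTPRC, NAV3 and PGPEP1L (adjusted p = 0.053 to 0.067) and of no other gene called in the text. The percent of calls that were higher, 11.1, became 24.8, 26.8 and 28.4 in the 6 arrays, the 12 arrays and on the quantile scale. The 284 differences from MDA231 became 736 on the quantile scale, 85 under 0.01 and 135 to 210 without 1 array; the 58 from BT549 became 113, 17 and 24 to 57. The 540 calls of 24 h against 4 h became 1610 in the 12 arrays, 1078 on the quantile scale, 243 under 0.01, 242 with 1.5-fold and 297 to 496 without 1 array. List calls, 74 of 555 genes, became 121 and 141 in the 6 and 12 arrays, 40 under 0.01, 44 with 1.5-fold and 32 to 61 without 1 array. Named calls, 87 of 101, became 51 under 0.01 and 44 to 73 without 1 array. Fits of fewer arrays have fewer samples and another estimate of the spread; the cause of the other moves was not tested. Signal over background limits the dim genes.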
